A study of Neurospora crassa with 24 samples.

Results

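The 7 transporter loci of the filamentous fungus *Neurospora crassa* described here were followed by RNA-Seq across 3 strains and 4 media. They were NCU01132 (*xat-1*), NCU02188 (*lat-1*), NCU00988 (*gat-1*), NCU00821, NCU09287, NCU05897 and NCU05627. The loci were taken by tag, 7 of the 9730 loci in each file, and all 7 passed the filter on low values. In these same data the paper names *xat-1*, *lat-1*, *gat-1*, NCU00821, NCU09287 and NCU05897 for a glucose response in the WT. It reports that response as impaired in both mutants. Counts of members set beside all genes are therefore not independent of how the loci were chosen. The strains were the Δ*rco-3* mutant, the Δ*col-26* mutant and the WT, each deletion being 1 stock strain, listed as *mat a* for both mutants. Conidia were grown to mycelia for 16 h at 28 °C in constant light on minimal medium with 2% sucrose, washed, and kept for 1 h in the same medium with no carbon source or with 0.05, 0.5 or 2% glucose. With 2 libraries for every strain in every medium there were 12 groups and 24 libraries, and the study's methods treat the 2 as biological replicates.

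Sugar transporters of the major facilitator superfamily carry sugars through the plasma membrane. Fungi that live on plant cell walls hold many of them, each with its own set of substrates, and genes for transporters of less preferred sugars are commonly kept low while glucose is present, a control called carbon catabolite repression. In *N. crassa*, RCO-3 is a glucose sensor of the plasma membrane that resembles a transporter but does not transport, and COL-26 is a transcription factor of the fungal zinc cluster family, related to the amylase regulators of Aspergillus. XAT-1 is a transporter of D-xylose and L-arabinose, the pentoses of hemicellulose, LAT-1 a transporter of L-arabinose, and GAT-1 a transporter of galacturonic acid, the acid sugar of pectin. NCU00821, NCU09287, NCU05897 and NCU05627 are called by their tags, and no substrate is assigned to their proteins here.

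The loci lie on 4 chromosomes of the NC12 assembly. *xat-1* is at chromosome V, 2983159 to 2984949, *gat-1* at chromosome I, 6480932 to 6483194, and NCU00821 at chromosome I, 7056000 to 7058684. Chromosome VII holds NCU09287 at 70827 to 73411, *lat-1* at 3401718 to 3403998 and NCU05897 at 4200217 to 4202741, and NCU05627 is at chromosome VI, 1275879 to 1278130. Only *gat-1* overlaps another annotated locus, by 132 bp with NCU00987, so its values are uncertain to the extent that fragments of the shared end were split. NCU00987 itself was at 0.45 to 1.83 FPKM in Δ*rco-3*, 0.2 to 1.02 FPKM in Δ*col-26* and 0.2 to 1.21 FPKM in the WT, low beside *gat-1* in medium without carbon source.

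Values are FPKM, fragments adjusted for transcript length and for how many fragments of the library mapped, so levels can be compared between genes. Tests were made with limma on log2(FPKM + 1) in one fit of 7981 genes. A gene was called when its Benjamini-Hochberg adjusted p was below 0.001, its log2 fold change at least 1 in size and its mean above 20 FPKM in at least 1 group compared. Because of the added 1, fold changes of genes near or below 1 FPKM come out too small. The summed FPKM per library ranged from 565181 to 616209, and replicates correlated at r = 0.998 to 0.999 across genes. Read counts were not used here. From the smallest steps of low values, 1 FPKM of a member corresponded to about 17 to 26 fragments. The WT values of *xat-1*, *lat-1* and *gat-1* on glucose, all below 1 FPKM, thus rest on fewer fragments than that. *rco-3* (NCU02582) had 0 FPKM in each of the 8 Δ*rco-3* libraries, whereas *col-26* (NCU07788) was at 4.91 to 10.6 FPKM in the Δ*col-26* libraries, against 16.7 to 39.6 FPKM in the WT. Without carbon source its group mean was 10.5 FPKM in Δ*col-26*, against 21.1 FPKM in the WT, and on 0.05% glucose it was 5.02 FPKM in Δ*col-26*, against 39.4 FPKM in the WT. Which part of *col-26* was deleted is not given in the sources used here, so these values do not check the strain label in full.

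The all-gene median was shifted in several comparisons, most in Δ*rco-3* *vs.* WT on 0.05% glucose, where it stood at 0.50 on the log2 scale before and at -0.0038 after median-ratio scaling. Fold changes of the members are therefore read beside the all-gene median of the same comparison. None of the members' calls changed direction under median-ratio scaling or quantile normalization.

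For description, the loci were sorted into 3 patterns across the 12 groups, with borders that are not sharp. *xat-1*, *lat-1*, *gat-1* and NCU00821 were highest without carbon source in every strain, and on glucose they were low in the WT and less low in both mutants. NCU09287 and NCU05897 stood between 317 and 2172 FPKM in every mutant library, but at 0.96 to 5.72 FPKM in the WT on 0.5 and 2% glucose. NCU05627 lay between 41.4 and 126 FPKM in all 16 mutant libraries, whereas in the WT it peaked on 0.05% glucose at 2215 and 2263 FPKM. Within Δ*col-26*, NCU00821 on 2% glucose kept 77.1% of its level without carbon source, while NCU05897 kept only 30.3% of its own.

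**Figure D1:**
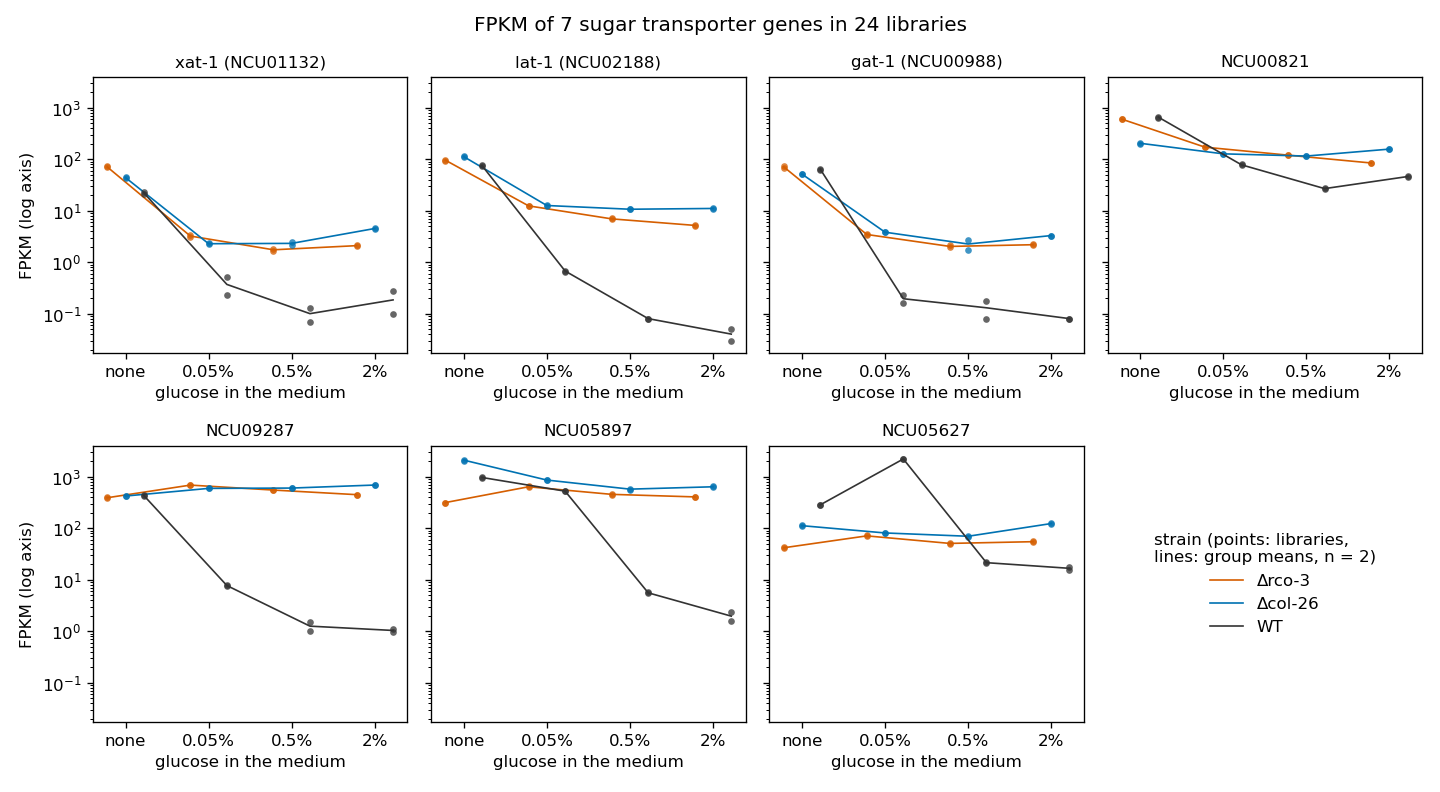
FPKM of the 7 loci (vertical axis, logarithmic) in medium with no carbon source or 0.05, 0.5 or 2% glucose (horizontal axis), for Δ*rco-3*, Δ*col-26* and the WT; points are single libraries and lines join the means of 2. The mutant lines of NCU09287 stay between 394.6 and 697 FPKM, while the WT line drops to 1.04 FPKM on 2% glucose.

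The pentose transporter gene *lat-1* was measured at 98.4 and 94.2 FPKM in the Δ*rco-3* libraries, 111 and 115 FPKM in Δ*col-26*, and 76.8 and 74.5 FPKM in the WT when no carbon source was given. On 0.05% glucose it was at 12.4 and 12.5 FPKM in the Δ*rco-3* libraries, 12.5 and 12.9 FPKM in Δ*col-26*, and 0.69 and 0.66 FPKM in the WT. On 0.5% glucose the values were 6.85 and 7.09 FPKM in Δ*rco-3*, 10.8 and 10.7 FPKM in Δ*col-26*, and 0.08 FPKM in each WT library. Every mutant library was thus above every WT library at each of these glucose levels, with no overlap. On 2% glucose *lat-1* was at 5.24 and 5.17 FPKM in the Δ*rco-3* libraries, 11.3 and 10.9 FPKM in Δ*col-26*, and 0.03 and 0.05 FPKM in the WT. The mutant levels on glucose amounted to 5.41% to 13.0% of the level without carbon source in Δ*rco-3* and 9.49% to 11.2% in Δ*col-26*. Each mutant thus still lost most of its own FPKM on glucose. The fold decrease was smaller in both mutants than in the WT, whose levels on glucose were 0.0529% to 0.892% of its level without carbon source.

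For *xat-1*, which carries both pentoses, the libraries without carbon source read 69.6 and 72.9 FPKM in Δ*rco-3*, 44.5 and 44.1 FPKM in Δ*col-26*, and 23.3 and 21.4 FPKM in the WT. The order of the strains was the same in both replicates. On 0.05% glucose it was at 3.03 and 3.43 FPKM in the Δ*rco-3* libraries, 2.24 and 2.34 FPKM in Δ*col-26*, and 0.23 and 0.51 FPKM in the WT. On 0.5% glucose it was at 1.82 and 1.67 FPKM in the Δ*rco-3* libraries, 2.48 and 2.17 FPKM in Δ*col-26*, and 0.07 and 0.13 FPKM in the WT. On 2% glucose it was at 2.12 and 2.08 FPKM in the Δ*rco-3* libraries, 4.65 and 4.41 FPKM in Δ*col-26*, and 0.1 and 0.27 FPKM in the WT. The mutants were above the WT without overlap in all 4 media, while the WT values on 2% glucose overlapped those on 0.05 and on 0.5% glucose.

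The galacturonic acid transporter gene *gat-1* differed less between strains without carbon source, at 69.5 and 73.8 FPKM in the Δ*rco-3* libraries, 51.0 and 52.6 FPKM in Δ*col-26*, and 65.6 and 63.4 FPKM in the WT. On 0.05% glucose it was at 3.5 and 3.43 FPKM in the Δ*rco-3* libraries, 3.82 and 3.85 FPKM in Δ*col-26*, and 0.23 and 0.16 FPKM in the WT. On 0.5% glucose the readings were 1.94 and 2.12 FPKM in Δ*rco-3*, 2.76 and 1.76 FPKM in Δ*col-26*, and 0.18 and 0.08 FPKM in the WT. The mutants overlapped each other there but not the WT. On 2% glucose it was at 2.12 and 2.26 FPKM in the Δ*rco-3* libraries, 3.3 FPKM in each Δ*col-26* library, and 0.08 FPKM in each WT library.

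NCU00821, annotated by the authors as a sugar transporter, was the most abundant of these 4 loci. Without carbon source it was at 608 and 603 FPKM in the Δ*rco-3* libraries, 209 and 202 FPKM in Δ*col-26*, and 671 and 651 FPKM in the WT. On 0.05% glucose it was at 171 and 175 FPKM in the Δ*rco-3* libraries, 128 FPKM in each Δ*col-26* library, and 77.2 and 79.6 FPKM in the WT. Only Δ*col-26* was thus far from the WT without carbon source, and both mutants were above it on 0.05% glucose. On 0.5% glucose it was at 119 and 123 FPKM in the Δ*rco-3* libraries, 116 FPKM in each Δ*col-26* library, and 26.4 and 27.7 FPKM in the WT. On 2% glucose it was at 86.2 and 84.1 FPKM in the Δ*rco-3* libraries, 156 and 161 FPKM in Δ*col-26*, and 47.8 and 45.0 FPKM in the WT. No neighbouring pair among the 12 groups of NCU00821, ordered by level, overlapped in its replicates.

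In Δ*rco-3* the levels of NCU09287 were 399 and 389.8 FPKM without carbon source, 702 and 688 FPKM on 0.05%, 547 and 566 FPKM on 0.5%, and 455 and 452 FPKM on 2% glucose. In Δ*col-26* they were 430.3 and 422 FPKM without carbon source, 599.9 FPKM in each library on 0.05%, 606 and 611 FPKM on 0.5%, and 697 and 696 FPKM on 2% glucose. In the WT they were 436 and 437 FPKM without carbon source, 7.59 and 7.87 FPKM on 0.05%, 0.99 and 1.52 FPKM on 0.5%, and 0.96 and 1.11 FPKM on 2% glucose. The 3 strains were thus close without carbon source, and on glucose both mutants lay above their own level without carbon source while the WT fell to 0.237% of it on 2% glucose. Levels on 0.5 and 2% glucose in the WT overlapped.

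NCU05897 read 317 and 319 FPKM in Δ*rco-3* without carbon source, 632 and 657 FPKM on 0.05%, 455 and 463 FPKM on 0.5%, and 405 and 414 FPKM on 2% glucose. In Δ*col-26* it was at 2172 and 2081 FPKM without carbon source, 858 and 884 FPKM on 0.05%, 570.0 and 589.6 FPKM on 0.5%, and 636 and 653 FPKM on 2% glucose. In the WT it was at 984 and 970.0 FPKM without carbon source, 531 and 529 FPKM on 0.05%, 5.45 and 5.72 FPKM on 0.5%, and 1.61 and 2.32 FPKM on 2% glucose. The WT therefore kept NCU05897 high on 0.05% glucose, where NCU09287 was already low. Δ*rco-3* had its lowest NCU05897 level, and Δ*col-26* its highest, in medium without carbon source.

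The third pattern belonged to NCU05627. In Δ*rco-3* it was at 41.4 and 42.5 FPKM without carbon source, 73.1 and 69.9 FPKM on 0.05%, 50.8 and 51.3 FPKM on 0.5%, and 56.7 and 53.5 FPKM on 2% glucose. In Δ*col-26* it was at 112 and 114 FPKM without carbon source, 80.9 and 82.2 FPKM on 0.05%, 71.2 and 69.4 FPKM on 0.5%, and 126 and 123 FPKM on 2% glucose. WT libraries held 283 and 291 FPKM without carbon source, 2215 and 2263 FPKM on 0.05%, 21.8 and 21.3 FPKM on 0.5%, and 18.1 and 15.4 FPKM on 2% glucose. The WT values spanned 134-fold between the highest and the lowest group mean and enclosed those of both mutants.

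Each deletion strain was compared with the WT in each medium. As each deletion is 1 stock strain, its effect cannot be told apart from other differences of that stock. The p-values measure only the spread of libraries within a stock. The 2 sets of comparisons share the WT libraries. Without carbon source, 1 member rose and 2 fell in Δ*rco-3*, where 1.92% of all genes tested were called higher and 2.16% lower. *xat-1* rose by a log2 fold change of 1.63 ± 0.09 (SE; adjusted p = 7.27e-12), while NCU05627 fell by 2.74 ± 0.05 (adjusted p = 2.23e-19) and NCU05897 fell by 1.62 ± 0.06 (adjusted p = 4.93e-14). In Δ*col-26*, 1 member rose and 2 fell, against 4.62% and 5.01% of all genes. NCU05897 rose by 1.12 ± 0.06 (adjusted p = 6.28e-12), whereas NCU00821 fell by 1.68 ± 0.03 (adjusted p = 3.48e-19) and NCU05627 fell by 1.34 ± 0.05 (adjusted p = 5.09e-15). The call of NCU05897 was lost under quantile normalization, at 0.72. The value of *xat-1* in Δ*col-26* was 0.96 (95% interval 0.77 to 1.15), just under the fold threshold; it was called under median-ratio scaling (1.09), under quantile normalization (1.03) and without WT replicate 1 (1.02).

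On 0.05% glucose, 2 members rose and 1 fell in Δ*rco-3* (all genes 9.25% higher and 3.02% lower), and 1 rose and 1 fell in Δ*col-26* (5.85% and 3.5%). NCU09287 rose in both mutants, by 6.32 ± 0.06 (adjusted p = 8.14e-24) in Δ*rco-3* and 6.11 ± 0.06 (adjusted p = 2.23e-23) in Δ*col-26*. NCU05627 fell by 4.95 ± 0.05 (adjusted p = 5.87e-24) in Δ*rco-3* and fell by 4.76 ± 0.05 (adjusted p = 2.02e-23) in Δ*col-26*. NCU00821 rose by 1.13 ± 0.03 in Δ*rco-3* (adjusted p = 1.12e-16), a call lost under median-ratio scaling (0.53) and quantile normalization (0.88). NCU05897 was at 0.28 ± 0.06 in Δ*rco-3*, below the all-gene median of 0.50, and at 0.72 ± 0.06 in Δ*col-26*, and was called in neither; the value in Δ*rco-3* turned to -0.33 under median-ratio scaling.

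On 0.5% glucose 4 members rose and none fell in each mutant, where 2% of all genes were called lower in Δ*rco-3* and 2.49% in the Δ*col-26* mutant, and 4.47% were called higher in Δ*rco-3* and 4.25% in the Δ*col-26* mutant. NCU09287 rose by 7.96 ± 0.06 in Δ*rco-3* (adjusted p = 6.54e-25) and 8.09 ± 0.06 in Δ*col-26* (adjusted p = 3.9e-25). NCU05897 rose by 6.13 ± 0.06 in Δ*rco-3* (adjusted p = 1.92e-23) and 6.46 ± 0.06 in Δ*col-26* (adjusted p = 9.81e-24). NCU00821 and NCU05627 rose less, NCU00821 by 2.12 ± 0.03 in Δ*rco-3* and 2.06 ± 0.03 in the Δ*col-26* mutant, and NCU05627 by 1.21 ± 0.05 in Δ*rco-3* and 1.66 ± 0.05 in the Δ*col-26* mutant. For NCU05627 in Δ*rco-3* the fold change was 0.92 under median-ratio scaling and 0.98 under quantile normalization, both under the threshold.

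On 2% glucose 3 members rose in Δ*rco-3* and 4 in the Δ*col-26* mutant, with none lower, against 5.38% and 5.95% of all genes called higher and 2.63% and 2.96% called lower. NCU09287 rose by 7.80 ± 0.06 in Δ*rco-3* (adjusted p = 9.4e-25) and 8.42 ± 0.06 in Δ*col-26* (adjusted p = 1.55e-25). NCU05897 rose by 7.12 ± 0.06 in Δ*rco-3* (adjusted p = 2.31e-24) and 7.78 ± 0.06 in Δ*col-26* (adjusted p = 5.18e-25). NCU05627 rose by 1.67 ± 0.05 in Δ*rco-3* and 2.82 ± 0.05 in the Δ*col-26* mutant. NCU00821 rose by 1.75 ± 0.03 in Δ*col-26* and stood at 0.86 ± 0.03 in Δ*rco-3*, which missed the fold threshold.

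*xat-1*, *lat-1* and *gat-1* passed the adjusted p and the fold threshold in both mutants on every glucose level, but none was called, because no group compared had a mean above 20 FPKM. Their log2 fold changes lay between 1.32 and 3.01 in Δ*rco-3* and between 1.27 and 3.54 in Δ*col-26*. For *lat-1* on 2% glucose the values were 2.58 ± 0.05 in Δ*rco-3* (adjusted p = 3.56e-20) and 3.54 ± 0.05 in Δ*col-26* (adjusted p = 2.25e-22). Without the FPKM minimum, 44 of the 56 pairs of member and comparison passed instead of 26. By adjusted p and fold alone, all 7 members were higher on 0.5% glucose in both mutants, and on 2% glucose 6 in Δ*rco-3* and 7 in the Δ*col-26* mutant, where 11.2% and 11.3% of all genes were higher by the same rule. In Δ*rco-3* this share of all genes was 9.47% on 0.5% and 21% on 0.05% glucose. In Δ*col-26* it was 8.39% on 0.5% and 12% on 0.05% glucose.

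The median log2 fold change of the 7 members on 2% glucose was 1.67 in Δ*rco-3* and 2.82 in the Δ*col-26* mutant, beside all-gene medians of 0.21 and 0.05. Without carbon source it was -0.13 in Δ*rco-3* and -0.03 in the Δ*col-26* mutant, beside 0.22 and -0.15. Single members ran from -2.74 to 1.63 in Δ*rco-3* and from -1.68 to 1.12 in Δ*col-26* without carbon source, where calls in both directions are mixed. On 2% glucose every member had a positive value in both mutants. Genes of asexual sporulation differed between the same strains. All 4 conidiation markers examined (*con-6*, *con-8*, *con-10* and *eas*) were called higher in both mutants without carbon source, and 3 of 4 on each glucose level, beside 1.92% to 9.25% of all genes called higher in these comparisons. None was at 0 in any library, and their summed level on glucose was 587 to 905 FPKM in Δ*rco-3*, 368 to 743 FPKM in Δ*col-26* and 5.05 to 33.4 FPKM in the WT. Without carbon source the sums were 4621 to 4798 FPKM in Δ*rco-3*, 4828 to 5050 FPKM in Δ*col-26* and 352 to 361 FPKM in the WT. Their part in the differences of the transporter genes was not tested.

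**Figure D2:**
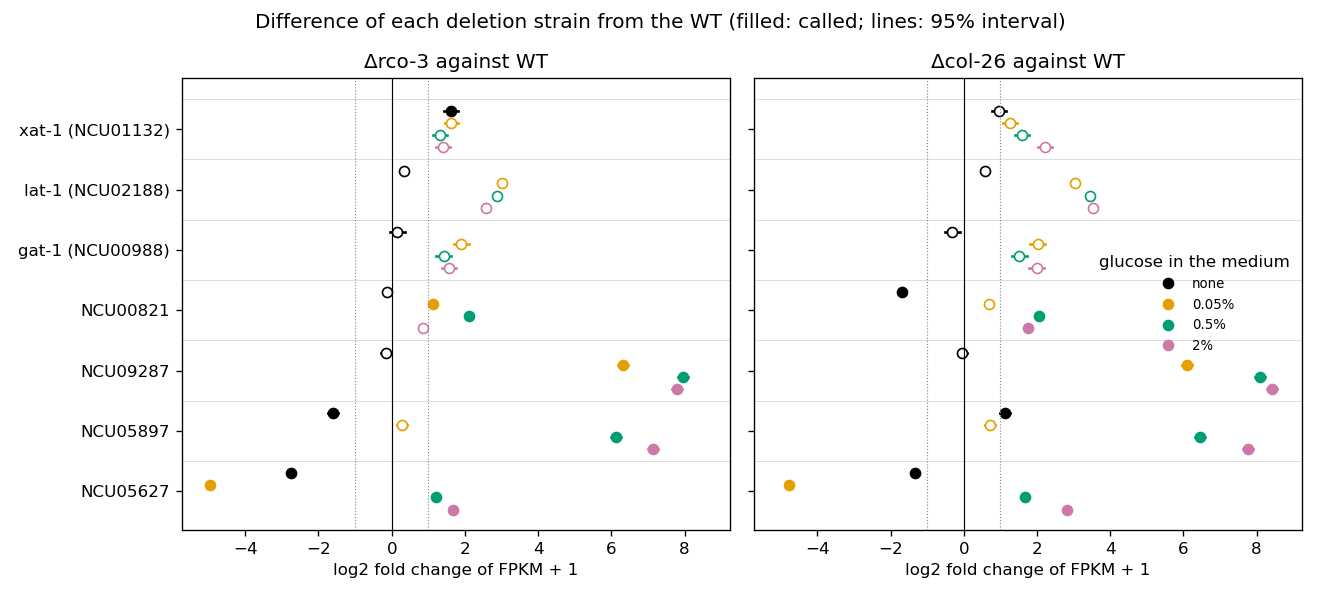
Log2 fold change of FPKM + 1 (horizontal axis) of each locus in Δ*rco-3* against WT (left) and Δ*col-26* against WT (right), by glucose in the medium (colour); lines are 95% intervals, filled points were called and dotted lines mark a fold change of 1 on the log2 scale. NCU05627 lies left of 0 without carbon source and on 0.05% glucose and right of it on 0.5 and 2% glucose in both mutants, and *xat-1*, *lat-1* and *gat-1* are right of 1 on glucose with open points.

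The mutants were also compared with each other. Without carbon source 1 member was higher and 2 were lower in Δ*rco-3* than in Δ*col-26* (2.47% and 2.84% of all genes). NCU00821 was higher by 1.55 ± 0.03 (adjusted p = 2.77e-18), NCU05627 had a log2 fold change of -1.41 ± 0.05 (adjusted p = 4.49e-15) and NCU05897 one of -2.74 ± 0.06 (adjusted p = 1.13e-17). On 0.05% glucose (1.4% of all genes called) and on 0.5% glucose (1.27%) no member was called by limma, though at an unadjusted p below 0.05 it passed 5 on 0.05% and 4 on 0.5% glucose. At an adjusted p below 0.001 alone, without the fold threshold, NCU00821 and NCU05897 passed on 0.05% glucose and NCU05627, *lat-1* and NCU05897 on 0.5% glucose, and all fold changes there lay between -0.56 and 0.43. On 2% glucose NCU05627 was called lower, at -1.16 ± 0.05 (adjusted p = 2.06e-13; 1.73% of all genes lower and 0.601% higher). All 7 members had lower values in Δ*rco-3* there, with log2 fold changes between -1.16 and -0.43. Under median-ratio scaling NCU00821 was called as well, at -1.08.

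How each strain answered to carbon was asked between media. In medium without carbon source *vs.* 2% glucose, 4 members were higher in Δ*rco-3* and 4 in the Δ*col-26* mutant, against all 7 in the WT. The WT count was in part fixed by the choice of the loci. Of all genes, 11.2% were called higher in Δ*rco-3*, 10.3% in the Δ*col-26* mutant and 16.9% in WT mycelia. Called lower were 8.73% in Δ*rco-3*, 10.5% in the Δ*col-26* mutant and 12.4% in WT mycelia, with no member among them. *xat-1*, *lat-1* and *gat-1* were higher in all 3 strains: *lat-1* by 3.97 ± 0.05 in Δ*rco-3*, 3.24 ± 0.05 in the Δ*col-26* mutant and 6.20 ± 0.05 in WT mycelia. The fourth member called was NCU00821 in Δ*rco-3*, at 2.82 ± 0.03, and NCU05897 in Δ*col-26*, at 1.72 ± 0.06. NCU09287 stood at -0.20 ± 0.06 in Δ*rco-3* and -0.71 ± 0.06 in the Δ*col-26* mutant, whereas in the WT it was higher by 7.75 ± 0.06, and NCU05897 by 8.38 ± 0.06. The call of *xat-1* in the WT was lost under median-ratio scaling, where its mean without carbon source was 19.5 FPKM, below the minimum. The median of the 7 was 2.82 in Δ*rco-3*, 1.72 in the Δ*col-26* mutant and 5.92 in WT mycelia, beside all-gene medians of 0.30, 0.13 and 0.31.

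Most of the decrease of *xat-1*, *lat-1* and *gat-1* occurred between medium without carbon source and the lowest glucose level. In this step 4 members were higher without carbon source and 1 was lower in Δ*rco-3* (all genes 9.84% and 8.09%), 4 were higher and none lower in Δ*col-26* (11.1% and 10.6%), and 5 were higher and 1 lower in the WT (17.4% and 9.32%). *gat-1* had log2 fold changes of 4.02 ± 0.10 in Δ*rco-3*, 3.45 ± 0.10 in the Δ*col-26* mutant and 5.78 ± 0.10 in WT mycelia. The member called lower was NCU05897 in Δ*rco-3*, at -1.02 ± 0.06, which was -0.99 and not called without replicate 2 of Δ*rco-3* on 0.05% glucose, and NCU05627 in the WT, at -2.96 ± 0.05. In Δ*col-26* NCU05897 was higher without carbon source, at 1.29 ± 0.06. The WT value of NCU05897 was 0.88 ± 0.06 and not called, and was called under quantile normalization, at 1.58.

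Between 0.05 and 0.5% glucose no member was called in Δ*rco-3* or Δ*col-26*, where 0.0501% and 0.238% of all genes were called. At an unadjusted p below 0.05 limma passed all 7 members in Δ*rco-3* and 5 in the Δ*col-26* mutant. The adjusted p alone, without the fold threshold, was below 0.001 for all 7 members in Δ*rco-3* and for *gat-1* and NCU05897 in Δ*col-26*, with log2 fold changes of 0.32 to 0.76 in Δ*rco-3* and 0.59 for each of these 2 in Δ*col-26*. In the WT 3 members were higher on 0.05% glucose, where 3.62% of all genes were higher and 3.85% lower: NCU05627 by 6.63 ± 0.05 (adjusted p = 1.84e-25), NCU05897 by 6.33 ± 0.06 (adjusted p = 2.63e-23) and NCU00821 by 1.50 ± 0.03 (adjusted p = 2.85e-18). NCU09287 passed adjusted p and fold in the WT, at 1.96 ± 0.06, but lay below 20 FPKM in both media. The WT thus lowered NCU09287 mainly at the first step, and NCU05897 and NCU05627 at the second.

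Between 0.5 and 2% glucose no member was called in any strain, where 0.802% of all genes were in Δ*rco-3*, 0.476% in the Δ*col-26* mutant and 0.288% in WT mycelia. The unadjusted p of limma was below 0.05 for 5 members in Δ*rco-3*, 6 in the Δ*col-26* mutant and 4 in WT mycelia. Smaller differences passed the adjusted p of 0.001: *lat-1* and NCU00821 were at 0.36 and 0.50 in Δ*rco-3*, NCU05627, *xat-1* and NCU00821 at -0.81, -0.74 and -0.45 in Δ*col-26*, and NCU05627, NCU00821 and NCU05897 at 0.35, -0.76 and 1.16 in the WT. NCU00821 thus had a positive value in Δ*rco-3* and negative ones in Δ*col-26* and the WT. NCU05897 passed the fold threshold in the WT but not the FPKM minimum.

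**Figure D3:**
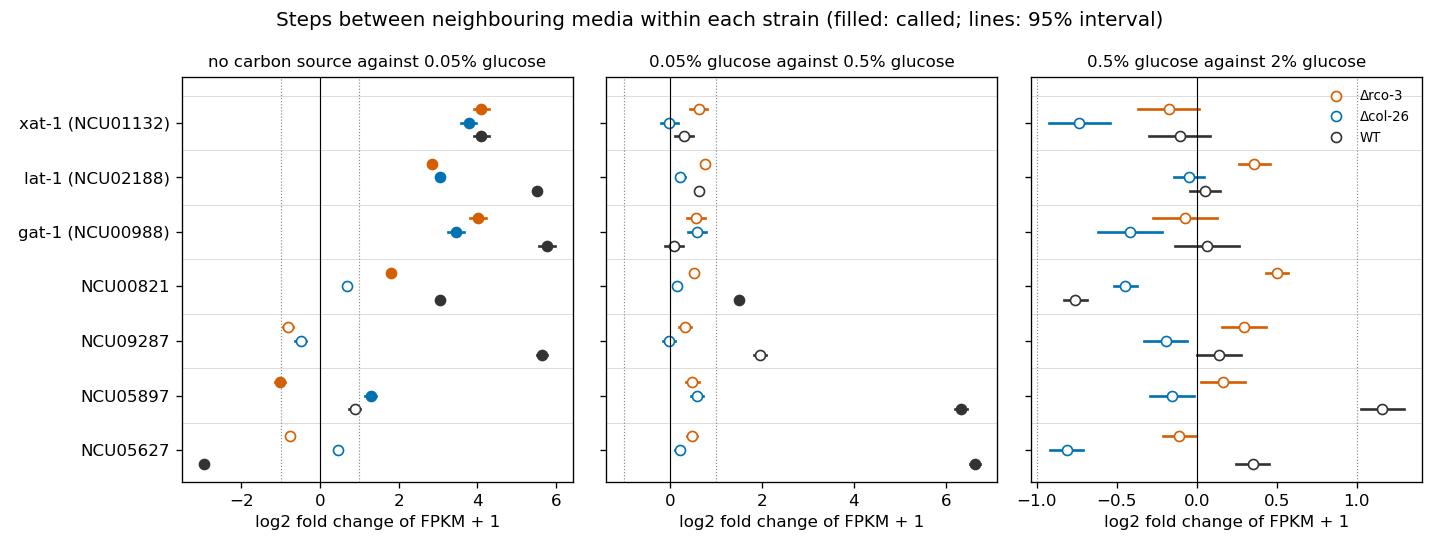
Log2 fold change of FPKM + 1 (horizontal axes, drawn to different scales) of no carbon source over 0.05% glucose, 0.05% over 0.5% and 0.5% over 2% glucose in Δ*rco-3*, Δ*col-26* and the WT; lines are 95% intervals and filled points were called. In the middle panel the points of all members in the mutants are below 1, and the WT points of NCU05627 and NCU05897 lie at 6.63 and 6.33.

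Over the 3 glucose levels together, an F test at an adjusted p below 0.001 was passed by 7 members in Δ*rco-3*, 6 in the Δ*col-26* mutant and 5 in WT mycelia, where 30.5%, 25.8% and 68.2% of all genes passed. On the log2 scale, the median range of the members over these levels was 0.62 in Δ*rco-3*, 0.59 in the Δ*col-26* mutant and 1.50 in WT mycelia, beside 0.22, 0.19 and 0.49 for all genes. The widest ranges were those of NCU05897 and NCU05627 in the WT, at 7.49 and 6.99. *xat-1* and *gat-1* missed the threshold in the WT, where they were below 1 FPKM, and NCU09287 missed it in Δ*col-26* (adjusted p = 0.0152), but passed without either WT library on 0.5% glucose. *lat-1* in Δ*col-26* passed narrowly (adjusted p = 0.000945) and did not pass with any of the 24 libraries left out, nor with the replicate block (adjusted p = 0.00145). *gat-1* in Δ*rco-3* did not pass without either Δ*rco-3* library on 0.05% glucose, *xat-1* in Δ*rco-3* without replicate 2 of that group, and *gat-1* in Δ*col-26* without replicate 2 of Δ*col-26* on 0.5% glucose. With 0.1 in place of the added 1, *xat-1* and *gat-1* passed in neither mutant and *lat-1* not in Δ*col-26*, while *xat-1* passed in the WT. The order of the strains by members passing depends on this value and is not read here. Under quantile normalization *xat-1* and *gat-1* did not pass in Δ*rco-3*. With only the compared groups fitted, *xat-1* and *gat-1* in Δ*rco-3* and *lat-1* and *gat-1* in Δ*col-26* did not pass, whereas NCU09287 in Δ*col-26* did.

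The difference of the responses was tested itself, as the response of a mutant minus that of the WT. For the response to no carbon source *vs.* 2% glucose, 5 members had a smaller response in Δ*rco-3* than in the WT and 7 in Δ*col-26*, where 8.95% and 11.1% of all genes were called in this direction and 4.74% and 4.03% in the other, which held no member. The differences reached -8.74 ± 0.09 for NCU05897 (adjusted p = 6.21e-23) and -7.95 ± 0.09 for NCU09287 (adjusted p = 1.69e-22) in Δ*rco-3*, and -8.46 ± 0.09 for NCU09287 (adjusted p = 3.05e-23) and -6.66 ± 0.09 for NCU05897 (adjusted p = 1.37e-21) in Δ*col-26*. *xat-1* was at 0.24 (95% interval -0.03 to 0.51) in Δ*rco-3* and at -1.27 ± 0.13 in Δ*col-26*. The direction in Δ*rco-3* depended on the pseudocount, with -1.35 at 0.1 and 1.03 at 5, so no direction is read from it. The calls of *gat-1* in both mutants, *lat-1* in Δ*rco-3* and *xat-1* in Δ*col-26* were lost with a pseudocount of 5.

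For no carbon source *vs.* 0.05% glucose, the all-gene median of the differences was itself negative, -0.29 in Δ*rco-3* and -0.43 in the Δ*col-26* mutant. Among the members called, 1 difference was positive and 5 were negative in Δ*rco-3* (all genes 3.82% and 11%). In Δ*col-26*, 1 was positive and 4 were negative (5.74% and 14.9%). The positive one was that of NCU05627, at 2.21 ± 0.07 in Δ*rco-3* and 3.43 ± 0.07 in the Δ*col-26* mutant, the gene that only the WT raised by more than the fold threshold on 0.05% glucose. *xat-1* was called in neither mutant, at -0.0015 (95% interval -0.27 to 0.27) in Δ*rco-3* and -0.32 (95% interval -0.58 to -0.05) in Δ*col-26*. With a pseudocount of 5 these values were 0.86 in Δ*rco-3* and 0.41 in the Δ*col-26* mutant, and with 0.1 *xat-1* was called in Δ*col-26*, at -1.43. In Δ*rco-3* the call of *gat-1* was lost with a pseudocount of 5 and that of NCU00821 under median-ratio scaling, at -0.89. For 0.05 *vs.* 0.5% glucose, 3 members were called in Δ*rco-3* and 4 in the Δ*col-26* mutant, all negative, beside 3.31% and 3.72% of all genes in this direction and 4.54% and 3.97% in the other. NCU00821 in Δ*rco-3* was at -0.99 ± 0.05, just under the fold threshold. It was called there under median-ratio scaling (-1.31) and quantile normalization (-1.06). NCU05627 was at -6.16 ± 0.07 in Δ*rco-3* and -6.42 ± 0.07 in the Δ*col-26* mutant, and NCU05897 at -5.84 ± 0.09 in Δ*rco-3* and -5.75 ± 0.09 in the Δ*col-26* mutant. The call of NCU09287 in Δ*rco-3*, at -1.64, was lost with a pseudocount of 5, at -0.71.

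Added together, the 7 loci gave 1013 ± 0.474 FPKM in Δ*rco-3*, 1643 ± 12.8 FPKM in Δ*col-26* and 66.4 ± 3.15 FPKM in the WT on 2% glucose (SD, n = 2 each). Without carbon source the sums were 1599 ± 6.38 FPKM in Δ*rco-3*, 3080.0 ± 70.5 FPKM in Δ*col-26* and 2524 ± 22.5 FPKM in the WT. The make-up differed as well. On 2% glucose NCU09287 and NCU05897 made 44.7% and 40.5% of the sum in Δ*rco-3* and 42.4% and 39.2% in the Δ*col-26* mutant, against 1.56% and 2.98% in the WT. In the WT NCU00821 made the largest share on 2% glucose, 69.9%, and NCU05627 on 0.05% glucose, 78.4%.

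**Figure D4:**
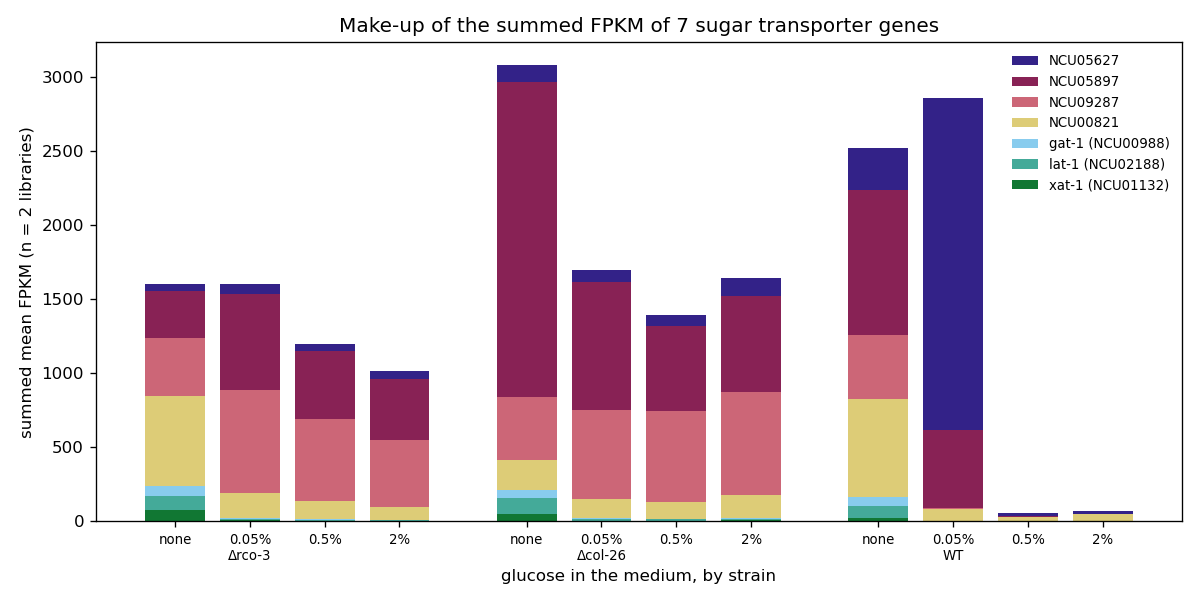
Summed mean FPKM of the 7 loci (vertical axis) in each medium (horizontal axis) for Δ*rco-3*, Δ*col-26* and the WT, with each locus as a part of the bar (n = 2 libraries). On 2% glucose the bars are 1013 FPKM high in Δ*rco-3* and 1643 FPKM in the Δ*col-26* mutant, against 66.4 FPKM in the WT.

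As a description over the 12 group means of log2(FPKM + 1), which share libraries and scaling, *xat-1*, *lat-1* and *gat-1* correlated with each other at Pearson r of 0.95 to 0.98 and with NCU00821 at 0.88 to 0.91. NCU09287 and NCU05897 correlated at r = 0.85 but at a Spearman's rho of 0.539. NCU05627 correlated at r of 0.07 to 0.57 with the other members, highest with NCU05897, where rho was 0.790. By rank NCU05897 was thus nearer to every other member (rho 0.601 to 0.790) than to NCU09287. NCU09287 itself had its highest rho among the members with NCU05897. Among all genes tested, the profiles most like *lat-1* were those of NCU07133, NCU11417 and NCU02238 (r = 0.99 each), and those most like *xat-1* were NCU08715, NCU05078 and *gh47-5* (NCU07067; r = 0.99 each). For *gat-1* they were NCU10106, NCU01636 and NCU09690 (r = 0.99 to 1.00), and for NCU00821 they were NCU03556, NCU08382 and *pex7* (NCU07662; r = 0.98 each), a gene of protein import into peroxisomes.

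NCU09287 was most like NCU05493, NCU11248 and NCU06358 (r = 0.97 to 0.99). NCU05627 had *ccg-8* (NCU09686), *stk-48* (NCU06760) and NCU04010 nearest, at r = 0.93 to 0.94, which were lower than the highest r of any other member. For NCU05897 the nearest were NCU02455, the invertase gene *inv* (NCU04265) and NCU05899, at r = 0.94 to 0.95. NCU05899 lies near NCU05897, at chromosome VII, 4216449 to 4219228, with the midpoints 16359 bp apart. Spearman's rho of the 21 pairs of member and like gene ranged from 0.448 to 0.986, lowest for NCU05493 with NCU09287.

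Genes that act on the imported pentoses and other sugar transporter genes were read beside the 7 loci. Of 4 genes of pentose catabolism (D-xylose reductase NCU08384, xylitol dehydrogenase NCU00891, *xyk-1* and L-arabinitol 4-dehydrogenase NCU00643), on 2% glucose none was called against the WT in Δ*rco-3* and 1 was called higher in Δ*col-26*, and by adjusted p and fold alone 3 were higher in Δ*rco-3* and 2 in the Δ*col-26* mutant. Of all genes, 5.38% were called higher in Δ*rco-3* and 5.95% in the Δ*col-26* mutant, and 11.2% and 11.3% passed adjusted p and fold alone. The median log2 fold change of the 4 was 1.25 in Δ*rco-3* and 1.18 in the Δ*col-26* mutant, beside all-gene medians of 0.21 and 0.05. D-xylose reductase, the first enzyme of D-xylose use, was at 19.7 and 20.1 FPKM in the Δ*rco-3* libraries, 23.3 and 24.8 FPKM in Δ*col-26*, and 6.11 and 7.05 FPKM in the WT on 2% glucose. The list of other sugar transporter genes held 5 (*hgt-1*, *cdt-1*, *cdt-2*, NCU00450 and NCU00809). On 2% glucose 2 of them were called higher in Δ*rco-3* and 3 in the Δ*col-26* mutant, and none lower. Their median log2 fold changes were 2.36 and 3.22, beside the same shares and medians of all genes. By adjusted p and fold alone, 4 were higher in Δ*rco-3*, while 3 were higher and 1 lower in Δ*col-26*. The lower one was NCU00809, at -1.04. The list leaves out *glt-1* and *hgt-2*. For *glt-1* the paper reports lower expression in both mutants at all glucose levels. No direction for sugar transporter genes in general is therefore read from these 5. Without carbon source 2 of these 5 fell in Δ*rco-3* (2.16% of all genes), and 1 rose and 1 fell in Δ*col-26* (4.62% and 5.01%).

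Of 4 regulators (*xlr-1*, *cre-1*, *col-26* and *rco-3*, of which the deleted gene counts in its own strain), 1 was called higher in Δ*rco-3* and none in Δ*col-26* on 2% glucose, where 5.38% and 5.95% of all genes were. The one called was *col-26* itself, at 1.35 ± 0.07 in Δ*rco-3*. By adjusted p and fold alone, 2 were higher in Δ*rco-3* and 1 in the Δ*col-26* mutant, where 11.2% and 11.3% of all genes were. *xlr-1* passed this rule in both mutants but lay below the FPKM minimum. Its log2 fold change was 3.05 ± 0.09 in Δ*rco-3* and 2.32 ± 0.09 in the Δ*col-26* mutant. *xlr-1* (NCU06971), which encodes an activator of genes for xylan and D-xylose use, was at 15.8 and 14.0 FPKM in the Δ*rco-3* libraries, 8.08 and 9.11 FPKM in Δ*col-26*, and 1.05 and 0.79 FPKM in the WT on 2% glucose. Without carbon source *xlr-1* was at 28.5 and 29.1 FPKM in the Δ*rco-3* libraries, 15.5 and 15.4 FPKM in Δ*col-26*, and 26.9 and 27.2 FPKM in the WT. Every mutant library was above the WT on 2% glucose, and Δ*col-26* alone was below it without carbon source. *cre-1* (NCU08807) encodes the repressor of carbon catabolite repression. On 2% glucose it was at 65.1 and 64.8 FPKM in the Δ*rco-3* libraries, 92.3 and 88.9 FPKM in Δ*col-26*, and 52.0 and 50.9 FPKM in the WT. Both mutants were thus above the WT there by less than the fold threshold. Without carbon source its group mean was 62.6 FPKM in Δ*col-26*, 24.3 FPKM in Δ*rco-3* and 14.1 FPKM in the WT. Only Δ*col-26* was called in that medium, at 2.08 ± 0.04 (adjusted p = 8.27e-20), while Δ*rco-3* stood at 0.75 ± 0.04. On 0.05% glucose *cre-1* was below the WT, at -0.57 ± 0.04 in Δ*rco-3* against -0.17 ± 0.04 in the Δ*col-26* mutant, and called in neither.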

How the data were processed

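FPKM were deposited by the authors, 1 value per locus and library, with 2 decimals. The authors trimmed reads with Trimmomatic 0.36 and quantified them with RSEM 1.2.8; the submitters' processing notes also list HISAT2 2.1.0 and DESeq 1.5.1, and the paper's methods name Bowtie2 as aligner, so which aligner made the values is unsettled. Sequencing was on a BGISEQ platform, and the genome was that of OR74A. FPKM depend on the other genes of a library, and read counts were not used.

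Testing used limma 3.58.1 under R 4.3.3, with a trend in the variance, on log2(FPKM + 1), over 7981 genes with a mean of at least 1 FPKM in at least 1 group. One model covered the 12 groups, with 12 degrees of freedom from residuals and 6.31 from the prior. P-values were adjusted by Benjamini-Hochberg within each of 30 comparisons, and the thresholds of the calls are those of the paper's methods. The script was tested on simulated data. Depth was read from 51 genes whose low values rise in shared steps, combined with genomic gene lengths, and is an estimate. Coordinates and symbols came from RefSeq (NC12), which matched 9729 of 9730 loci. Figures were drawn in Python 3.11.15 with matplotlib 3.10.9.

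The members and lists were chosen with earlier results of these data known. Named genes are all members, the 3 genes most like each, the deleted genes and list genes a result turns on. A galacturonate catabolism list and L-xylulose reductase were left out, since the sources used here do not annotate their loci. Protein and promoter sequences were not used here. Alternatives were pseudocounts of 0.1 and 5, other filters and thresholds, median-ratio scaling, quantile normalization, no trend, a fit of the compared groups only, the replicate number as a block, and each library left out.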

Additional observations from a re-analysis of the deposited data

Results flagged for a closer look

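The response of a member to the medium was tested for a difference between each mutant and the WT in 42 cases, and 30 passed. Each of these differed between strains under the same change of medium. Of all genes tested, 3.31% to 14.9% were called lower and 3.82% to 5.74% higher in the same comparisons. The count of members is not independent of how the loci were chosen. All values are differences of log2 fold changes, mutant minus WT.

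For no carbon source *vs.* 2% glucose in Δ*rco-3*, the response was smaller than in the WT for NCU05627 (-4.41), *lat-1* (-2.23), *gat-1* (-1.41), NCU09287 (-7.95) and NCU05897 (-8.74). In Δ*col-26* it was smaller for NCU05627 (-4.16), *xat-1* (-1.27), *lat-1* (-2.97), *gat-1* (-2.30), NCU00821 (-3.43), NCU09287 (-8.46) and NCU05897 (-6.66). NCU09287 and NCU05897 carried the largest differences among the 7 in both strains.

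For no carbon source *vs.* 0.05% glucose in Δ*rco-3*, the values were 2.21 for NCU05627, -2.67 for *lat-1*, -1.75 for *gat-1*, -1.26 for NCU00821, -6.46 for NCU09287 and -1.90 for NCU05897. In Δ*col-26* they were 3.43 for NCU05627, -2.46 for *lat-1*, -2.33 for *gat-1*, -2.38 for NCU00821 and -6.14 for NCU09287. NCU05627 had a positive difference in this step in both mutants.

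For 0.05% *vs.* 0.5% glucose in Δ*rco-3*, the differences were -6.16 for NCU05627, -1.64 for NCU09287 and -5.84 for NCU05897. In Δ*col-26* they were -6.42 for NCU05627, -1.36 for NCU00821, -1.98 for NCU09287 and -5.75 for NCU05897. Some of the calls in this section were lost under other settings, as given with the responses above. No explanation of these differences was tested.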

How the results depend on the processing

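Over 10 other settings and 24 single libraries left out, none of the 93 calls among 210 pairs of member and comparison changed direction; 15 of 7140 values lost a call and 39 gained one. Without the FPKM minimum, members called in mutant against WT numbered 44 instead of 26. In Δ*rco-3* they were 6 on 0.05%, 7 on 0.5% and 6 on 2% glucose, and in Δ*col-26* 5, 7 and 7. All those gained there were *xat-1*, *lat-1* and *gat-1*, whose group means on glucose are below the minimum. By the same setting 1 member, NCU05897, was called in the WT for 0.5% *vs.* 2% glucose. Under median-ratio scaling 2 members differed between the mutants on 2% glucose instead of 1, and the cause was not tested. With 1 library left out, the calls ranged from 26 to 27 in mutant against WT, 32 to 33 between media and 30 to 31 among differences of response, and 15 to 18 passed the F test instead of 18.

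The values that changed sign were not called in the report, and the cause was not tested. Under median-ratio scaling, Δ*rco-3* against the WT gave -0.083 for *gat-1* without carbon source and -0.33 for NCU05897 on 0.05% glucose, and Δ*col-26* against the WT gave 0.11 for NCU09287 without carbon source (0.22 under quantile normalization). Δ*rco-3* against Δ*col-26* gave -0.079 for NCU09287 on 0.05% and -0.20 for NCU00821 on 0.5% glucose. *lat-1* for 0.5% *vs.* 2% glucose in Δ*col-26* was at 0.031, and at 0.0094 under quantile normalization. The response differences of *xat-1* in Δ*rco-3* were -1.35 with a pseudocount of 0.1 for no carbon source *vs.* 2% glucose and -0.33 with 0.1 for 0.05% *vs.* 0.5%. For no carbon source *vs.* 0.05% glucose that of *xat-1* was 0.86 with a pseudocount of 5, 0.036 under median-ratio scaling, 0.41 under quantile normalization and -0.15 to 0.15 with 1 library left out, and in Δ*col-26* it was 0.41 with a pseudocount of 5. The *lat-1* difference for 0.05% *vs.* 0.5% in Δ*rco-3* was -1.27 with a pseudocount of 0.1, -0.11 under median-ratio scaling and -0.12 under quantile normalization, and in Δ*col-26* it was 0.0091 with 5. With 1 library left out, *gat-1* in Δ*rco-3* against Δ*col-26* on 0.5% glucose ranged from -0.31 to 0.13, *xat-1* for 0.05% *vs.* 0.5% in Δ*col-26* from -0.081 to 0.053, and NCU09287 for 0.5% *vs.* 2% in the WT from -0.031 to 0.31.

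The replicate numbers are shared only as numbers, and deviations of same-numbered libraries correlated at -0.543 to 0.358 over 66 pairs of groups. With the replicate block, 26 members were called in mutant against WT, 33 between media and 30 among differences of response, as without it, and 17 passed the F test, *lat-1* in Δ*col-26* being the one lost.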
